A study of Mus musculus with 10 samples.

Results

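The genes described here encode the metalloproteases of the ADAM, ADAMTS and matrix metalloproteinase (MMP) families and the tissue inhibitors of metalloproteinases (TIMPs). They were chosen by name alone, as the symbols in the deposited tables that are Adam, Adamts, Mmp or Timp followed by digits, with Mmp1a and Mmp1b, which gave 73 of 24000 genes: 27 ADAM, 19 ADAMTS, 23 MMP and 4 TIMP genes. RNA was sequenced from epithelial cells sorted by flow cytometry from the mammary glands of female mice, wild type (WT) or knockout (KO) for Bptf, which encodes the largest subunit of the NURF chromatin remodeller. There were 10 libraries in 5 groups of 2: Bptf WT luminal, Bptf KO luminal, Bptf WT myoepithelial (basal), Bptf KO myoepithelial, and a population labelled Bsecs from Bptf KO mice, a name that the labels do not spell out. Tamoxifen, at a total of 15 mg per kg, was given to all mice, WT included. Not given in the sources used here are strain, age, what drives the deletion and whether animals were pooled.

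ADAMs are membrane proteases that release the outer part of other membrane proteins, among them growth factor precursors, Notch receptors and cadherins. ADAMTS enzymes are secreted and cut matrix proteoglycans such as versican, and MMPs, secreted or held at the membrane, cut collagens, laminins and other matrix proteins. TIMPs block the active site of these enzymes: TIMP3 stays bound to the matrix and also inhibits several ADAM and ADAMTS enzymes, whereas the other TIMPs act mainly on MMPs. In the mammary gland these enzymes are known for releasing EGF receptor ligands during duct growth and for remodelling the matrix during branching and involution.

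The starts of several of these genes differ in kind, and the stretches that show it are given here for members described below. RefSeq promoters (GRCm38.p6; the 250 bases before each annotated start were searched) matched 44 of the 73 members, with 49 starts. Of these members, 10 are MMP genes that lie together on chromosome 9, in the order Mmp13, Mmp12, Mmp1b, Mmp3, Mmp1a, Mmp10, Mmp8, Mmp27, Mmp20 and Mmp7. The AP-1 motif TGANTCA, the site of the Fos and Jun factors, was found in 8 of those 10, and with the TATA motif TATAAA in 7 of them. Over all 44 members TGANTCA was found in 12, and those outside the row were Adam19 (at 1 of its starts), Adam20, Adam25 and Adam29. Of these, Adam29 also held TATAAA. In comparison, 6.75% of all 32851 promoters held TGANTCA on either strand, 7.59% held TATAAA on the gene's strand and 0.791% held both. The last 120 bases before the start of the 4 members of this row of genes that had more than 1 read and an AP-1 match are shown 5′ to 3′, with TGANTCA and TATAAA matches in capitals (Mmp3 chr9:7445702-7445821, plus strand; Mmp10 chr9:7502222-7502341, plus strand; Mmp12 chr9:7347254-7347373, plus strand; Mmp13 chr9:7272394-7272513, plus strand).
Mmp3: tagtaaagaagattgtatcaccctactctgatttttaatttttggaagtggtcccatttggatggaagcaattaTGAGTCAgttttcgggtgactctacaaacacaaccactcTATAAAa
Mmp10: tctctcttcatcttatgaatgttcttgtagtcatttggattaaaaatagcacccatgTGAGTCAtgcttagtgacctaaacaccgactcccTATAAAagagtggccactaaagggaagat
Mmp12: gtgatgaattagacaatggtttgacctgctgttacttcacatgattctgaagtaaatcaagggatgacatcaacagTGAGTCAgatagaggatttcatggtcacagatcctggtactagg
Mmp13: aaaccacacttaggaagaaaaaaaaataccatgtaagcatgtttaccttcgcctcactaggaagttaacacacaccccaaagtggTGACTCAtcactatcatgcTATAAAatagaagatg
Counting the last base before the start as -1, the AP-1 match began at position -46 in Mmp3, -63 in Mmp10, -44 in Mmp12 (at 1 of its 2 annotated starts) and -35 in Mmp13. Starts of the chromosome 9 row held few CG pairs, with a median of 1 in 250 bases, against 14 in the starts of the other members and 6 over all promoters. The same 120 bases are shown for 4 of the members that stood first or second in the family per length of exon in a column, with CG pairs in capitals (Timp3 chr10:86300292-86300411, plus strand; Adam8 chr7:139992563-139992682, minus strand; Adam10 chr9:70678862-70678981, plus strand; Adamts1 chr16:85803114-85803233, minus strand).
Timp3: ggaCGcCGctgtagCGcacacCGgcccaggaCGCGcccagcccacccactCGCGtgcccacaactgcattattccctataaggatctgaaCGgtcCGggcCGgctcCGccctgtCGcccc
Adam8: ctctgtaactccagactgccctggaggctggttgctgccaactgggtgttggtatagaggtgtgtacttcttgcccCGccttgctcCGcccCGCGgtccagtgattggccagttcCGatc
Adam10: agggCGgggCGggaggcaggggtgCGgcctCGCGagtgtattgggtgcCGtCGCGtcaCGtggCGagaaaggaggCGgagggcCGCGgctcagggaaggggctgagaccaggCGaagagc
Adamts1: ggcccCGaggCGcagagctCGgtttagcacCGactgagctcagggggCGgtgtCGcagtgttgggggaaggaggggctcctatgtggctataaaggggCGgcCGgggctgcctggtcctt
The 250 bases before these starts held 18 CG pairs in Timp3, 6 in Adam8, 29 in Adam10 and 15 in Adamts1. None held TGANTCA, and of the 4 only Adamts1 held TATAAA. Timp2, second per length in the luminal columns, and Timp1, second in the basal ones, are not shown, and held 21 and 6 CG pairs. Of 5 motifs searched, the CArG box and the consensus kB site of NF-kappaB were found in no member's window and in 1.47% and 0.140% of all promoters, too few for 44 members to show a difference, and the TEAD motif GGAATG was found on either strand in 3 members, Adam19, Adamts13 and Timp1, against 12.6% of all promoters.

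Each group is represented by a single mean per gene and its libraries by none, so differences have no replicate check, and every test is of the columns as sequenced, not of conditions. Whole reads were recovered from the means, and columns summed to between 2036681 and 3840462 reads. The 2 basal columns carry opposite genotype names in different tables, and are called the larger (2359861 reads) and the smaller (2036681 reads) basal column, and no knockout effect is read from them. One label of the KO luminal libraries names WT mice as their source. Bptf had between 420 and 1018 reads per column, which does not test the deletion, since reads from any exon count. The 13 luminal markers summed to 69570.1 and 79572 normalised reads in WT and KO luminal cells, 3537 and 4562 in the basal columns, larger first, and 57426 in Bsecs. The 10 basal markers summed to 182 and 705, 24780.2 and 45699.8, and 17563 in the same order. Single markers in Bsecs did not all follow these sums. Cldn4 alone gave 39058 of its luminal sum, while Prlr stood at 125 (WT luminal 15019), Krt18 at 2559 (17668), Elf5 at 1.05 (24.1) and Kit at 0 (59.8), and the list's median log2 fold was -2.57 over KO and -2.26 over WT luminal cells. Of the basal markers, Bsecs had 8945 of the keratin Krt14 but 144 of smooth muscle actin Acta2, where the basal columns had 11621 and 16612. In sorted bulk RNA, fewer cells of a type and less RNA per cell cannot be told apart.

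Levels over the 5 columns are given as normalised reads, that is, recovered reads divided by a factor per column that makes the median gene equal. Of the 73 members, 60 had a read in some column, 35 had at least 20 reads over the 5 columns and 21 were read in all 5. The larger basal column had the most members read, 48, and the smaller the fewest, 33. The same held over all genes, with 13957 read in the larger and 11791 in the smaller column. The 13 members at 0 in every column were Adam2, Adam3, Adam20, Adam25, Adam29, Adam32, Adam34, Adamts16, Adamts20, Mmp1a, Mmp1b, Mmp8 and Mmp20. Several of these ADAMs belong to sperm, Mmp8 is the neutrophil collagenase and Mmp20 the enamel protease. A count of 0 allows up to 3 reads, or 2.17 to 3.98 normalised reads, by counting error alone. Near-identical copies such as Mmp1a and Mmp1b are uncertain because how shared reads were counted is not stated. The housekeeping gene Gapdh, which has many pseudogene copies, had only 2 to 25 reads per column.

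**Figure D1:**
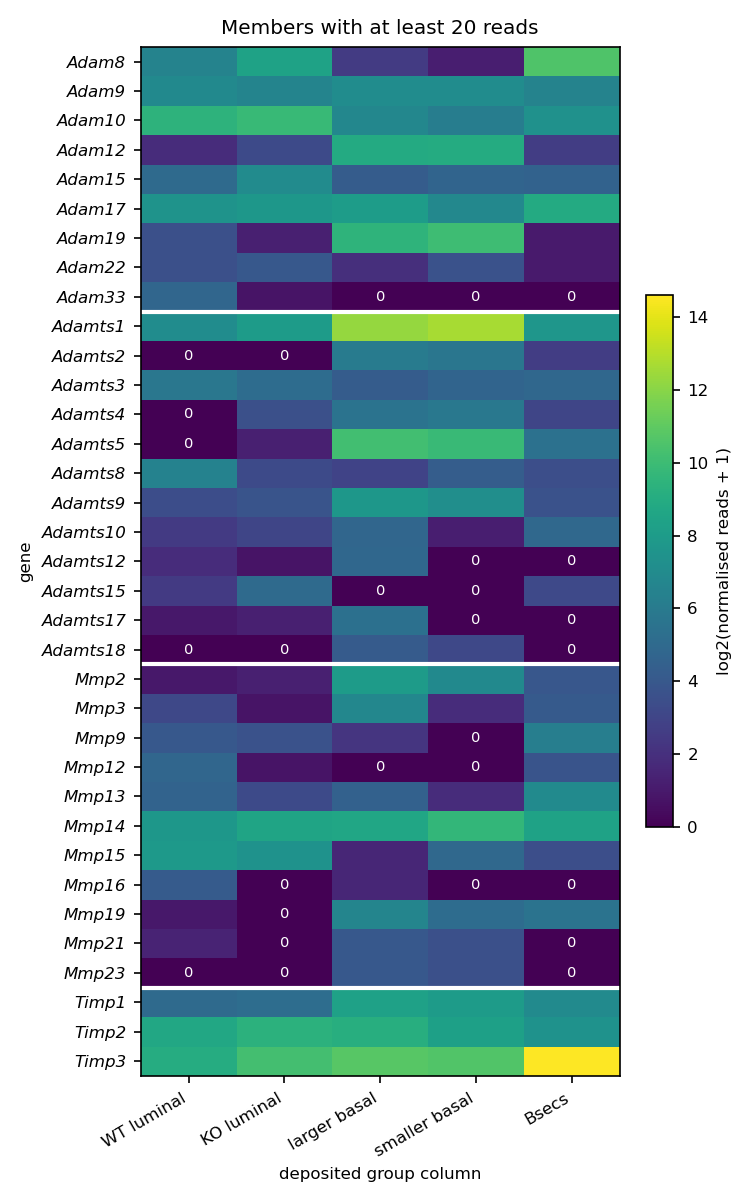
Heat map of log2(normalised reads + 1) for the 35 members with at least 20 reads over the 5 deposited columns, 1 row per gene and 1 column per sorted group, with white lines between the ADAM, ADAMTS, MMP and TIMP genes and 0 written where no read was found. The brightest cells are Timp3 in Bsecs, at 24554 normalised reads, and Adamts1 in the basal columns, at 5035 and 6652.

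By lineage, more members were basal-high than luminal-high, and the largest number were neither. Of the 35 members with at least 20 reads, 13 had their highest level in the larger basal column (all genes with as many reads, 19.7%). Likewise 13 of the 35 were at least 2-fold higher in both basal columns than in both luminal columns (37.1%, against 9.79% of the 12221 genes with as many reads), and 7 were at least 2-fold higher in both luminal columns (20% against 16%). The basal-high members were Adam12, Adam19, Adamts1, Adamts2, Adamts4, Adamts5, Adamts9, Adamts18, Mmp2, Mmp19, Mmp21, Mmp23 and Timp1. The luminal-high members were Adam8, Adam10, Adam33, Adamts15, Mmp9, Mmp12 and Mmp15. Among those, Adam33 and Mmp12 rest on 1 read in the KO luminal column and Adamts15 on 5 in the WT luminal column, so their side is known to counting error only. On the basal side, Adamts18 likewise rests on 6 reads, and Mmp21 and Mmp23 on 8 each, in the smaller basal column. The other 15 members overlapped between the lineages or differed by less than 2-fold. These are 2 columns against 2, and they are given as a description with no test. Some markers of stroma were higher on the basal side, and others were not. All 9 fibroblast markers were read in both basal columns, with sums of 2556 (larger) and 486 (smaller), and 6 and 7 in the WT and KO luminal columns, with sums of 817 and 1006 that were mostly Dcn (775 and 983). In the basal columns Dcn stood at 1297 and 130, larger first. Col1a2 stood at 203 and 67.7 in the basal columns against 0 and 0.723 in the luminal ones, and Pdgfra at 103 and 17.3 against 2.68 and 0.723. Of 6 endothelial markers, 6 and 5 were read in the basal and 4 and 3 in the luminal columns, with sums of 235 and 73.02 against 51.8 and 58.5, and Cdh5 at 113 and 19.9 against 1.79 and 0.723. Vwf went the other way, at 1.92 and 22.6 in the basal columns against 37.5 and 56.4 in the luminal ones. The part of these cells in the split was not tested.

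**Figure D2:**
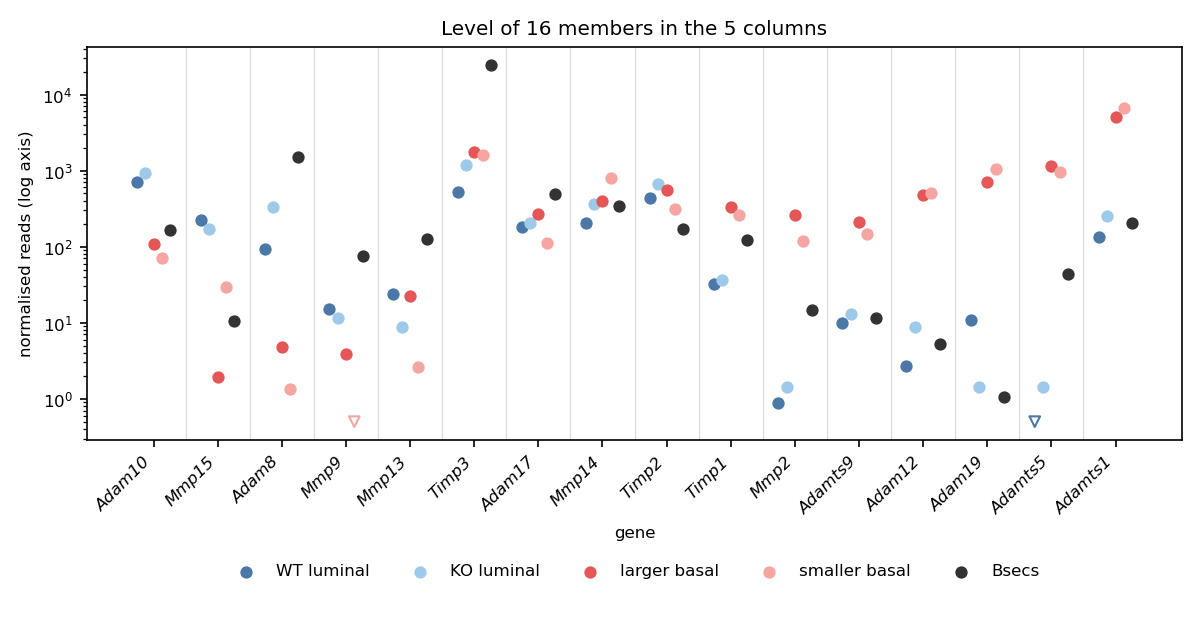
Normalised reads of 16 members (log axis) in the 5 columns, 1 point per column, with an open triangle where no read was found. Adam10 and Mmp15 were highest in the luminal columns, Adam8, Mmp9, Mmp13, Timp3 and Adam17 in Bsecs, and the genes from Timp1 to Adamts1 in the basal columns.

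Among the membrane ADAMs, Adam10, the main protease that cuts Notch receptors and E-cadherin, was a luminal gene with 701 normalised reads in WT luminal, 924 in KO luminal, 109 in the larger basal, 71.7 in the smaller basal and 168 in the Bsecs column. The luminal values lay above all other columns, and Bsecs lay near the basal ones. Adam17, which releases amphiregulin, TGF-alpha and TNF, was at 181 and 207 in the WT and KO luminal columns, 267 and 110.2 in the basal ones, larger first, and 488 in Bsecs, its highest. Adam9, a broadly expressed sheddase, was the most even of the larger members, at 91.7 to 135 in all 5. Adam15, which carries an integrin-binding site, had 132 in KO luminal cells and 18.3 to 32.1 in the other 4. Exons of 4731419I09Rik overlap 20.6% of its exon length, so its reads may include that gene's.

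Adam8, a sheddase best known from leukocytes, had 103 reads in WT luminal, 462 in KO luminal, 5 in the larger basal, 1 in the smaller basal and 1424 in Bsecs. On the common scale that is 1500.4 normalised reads in Bsecs, 334 in KO luminal, 91.97 in WT luminal, 4.81 (larger) and 1.33 (smaller) in the basal columns. Bsecs was therefore highest, the luminal columns intermediate and the basal columns near the limit of counting. Macrophage and neutrophil markers were read in all 5 columns, in a different order. The 7 matched macrophage markers summed to 85.3 normalised reads in Bsecs, 469 in WT luminal, 601 in KO luminal, 36.5 (larger) and 58.4 (smaller) in the basal columns. Most of the first 3 sums was Cd14, at 73.8, 396 and 486, and C1qa was at 0 in all 5 columns. Of the 7 neutrophil markers 2 were read in Bsecs, Lcn2 with 611 reads and Ltf with 4, and S100a8, S100a9, Ngp, Camp and Retnlg were at 0 there. That list summed to 648 normalised reads in Bsecs, 22397 and 21503 in WT and KO luminal cells, and 10062 (larger) and 8869 (smaller) in the basal columns, nearly all of it Lcn2 and Ltf, which mammary epithelium also expresses. The part of leukocytes in the Adam8 level was not tested.

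Adam12 and Adam19 are sheddases of EGF-type ligands, the latter of neuregulins. Adam12 had 3 reads in WT luminal, 12 in KO luminal, 495 in the larger basal, 377 in the smaller basal and 5 in Bsecs. Adam19 had 12 reads in WT luminal, 2 in KO luminal, 737 in the larger basal, 799 in the smaller basal and 1 in Bsecs. Both were high in the 2 basal columns, and in Bsecs each had 5 reads or fewer, Adam12 within and Adam19 below the range of the luminal columns. The other 13 ADAM genes with any read stayed small in every column, with Adam33 the highest of them at 27.7 normalised reads in WT luminal cells, and 11 of the 27 had 1 to 19 reads in all.

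Of the 13 basal-high members, 6 were secreted ADAMTS enzymes. Adamts1, which cuts versican and aggrecan, had 133 normalised reads in WT luminal, 256 in KO luminal, 5035 in the larger basal, 6652 in the smaller basal and 203 in the Bsecs column. Both basal values exceeded all others by more than 10-fold, while Bsecs lay between the luminal columns. Adamts5, the main aggrecan-cutting enzyme of cartilage, had 0 reads in WT luminal, 2 in KO luminal, 1197 in the larger basal, 718 in the smaller basal and 41 in Bsecs. It was close to absent from luminal columns, and in Bsecs stood between them and the basal columns. Adamts9, a versican protease that also acts in secretion, was at 208 and 145 in the basal columns, larger first, and at 9.82 to 13.01 in the other 3. The procollagen-processing enzyme Adamts2 was at 65.4 and 51.8 in the basal columns, 5.27 in Bsecs and 0 in both luminal ones. Adamts8 differed from these, at 85.7 in WT luminal cells and 6.73 to 18.6 elsewhere. Versican itself (Vcan), a substrate of several of these enzymes, was at 800 and 320 in the basal columns, 139 in Bsecs, 7.23 in KO luminal cells and 0 in WT luminal.

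Of the MMPs, the membrane-bound Mmp14, which cuts collagen and activates pro-MMP2, was well read in all 5 columns, with 207 normalised reads in WT luminal, 359.9 in KO luminal, 397 in the larger basal, 807 in the smaller basal and 340.3 in the Bsecs column. The smaller basal column was highest and WT luminal lowest. Its target Mmp2, a gelatinase, had 1 read in WT luminal, 2 in KO luminal, 271 in the larger basal, 90 in the smaller basal and 14 in Bsecs. Mmp15, another membrane-type MMP, was instead luminal, with 252 reads in WT luminal, 235 in KO luminal, 2 in the larger basal, 22 in the smaller basal and 10 in Bsecs, so that the luminal columns stood at least 5-fold above the rest on the common scale. Mmp19 was at 99.04 and 34.5 in the basal columns, larger first, 46.4 in Bsecs, 0.893 in WT luminal and 0 in KO luminal cells. On the opposite strand, exons of Tmem198b overlap 22.3% of the exon length of Mmp19, and reads may be split between them. Tmem198b had 13 reads in WT luminal, 35 in KO luminal, 0 in both basal columns and 1 in Bsecs.

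The collagenase Mmp13 and the gelatinase Mmp9 were highest in Bsecs. Mmp13 had 27 reads in WT luminal, 12 in KO luminal, 23 in the larger basal, 2 in the smaller basal and 118 in Bsecs, and Mmp9 had 17 reads in WT luminal, 16 in KO luminal, 4 in the larger basal, 0 in the smaller basal and 71 in Bsecs. The smaller basal column was lowest for both, and the other 3 columns lay between. Other genes of the chromosome 9 row did not all share this order. The stromelysin Mmp3 had 9 reads in WT luminal, 1 in KO luminal, 112 in the larger basal, 2 in the smaller basal and 16 in Bsecs, which put its highest value in the larger basal column. Mmp12, the macrophage elastase, had 30 reads in WT luminal cells, 12 in Bsecs, 1 in KO luminal and 0 in both basal columns, and Mmp10 had 5 in Bsecs and at most 1 elsewhere.

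TIMPs gave the largest single value of the family. Timp3 had 583 reads in WT luminal, 1641 in KO luminal, 1818 in the larger basal, 1193 in the smaller basal and 23304 in Bsecs. The Bsecs value was 24554 normalised reads against 521 to 1748 in the other 4 columns, none of them near it. Timp3 took 0.637% of all reads of the Bsecs column and was its seventh most read gene (rank 7). In the other columns its rank lay between 127 (larger basal) and 743 (WT luminal). On the opposite strand, exons of Syn3 overlap 21.3% of the exon length of Timp3 in GENCODE M21, and reads may be split between them. Syn3 had 65 reads in WT luminal, 38 in KO luminal, 20 in the larger basal, 19 in the smaller basal and 30 in Bsecs. How shared reads were counted is not stated. Timp1, an inhibitor induced in remodelling stroma, was basal, with 32.1 normalised reads in WT luminal, 36.1 in KO luminal, 328 in the larger basal, 260.2 in the smaller basal and 123 in the Bsecs column. Timp2, which also helps Mmp14 to activate Mmp2, was lowest in Bsecs, at 169, and at 308 to 669 in the other columns. Timp4 had 9 reads in KO luminal cells and 0 in the other 4 columns.

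Per length of exon, the groups of genes took different shares of the family in each population. Members can be compared with each other only on this scale, normalised reads per kilobase (kb) of exon, which uses GENCODE M21 lengths for 72 of the 73 members. ADAM genes summed to 230.2 per kb in WT luminal and 338 in KO luminal cells, 38.4% and 39.2% of the family, and Adam10 led both columns at 143 and 188 per kb. ADAMTS genes made up 47.2% and 57.2% in the basal columns, larger first, where Adamts1 alone was at 949.6 and 1255 per kb, and 1.49% in Bsecs. TIMPs were 82.6% of the family in Bsecs, with Timp3 at 3015 per kb, followed by Adam8 at 323, Timp1 at 139 and Adam17 at 68.2. In the other columns TIMPs were 23.5% to 41.6%. MMPs were the smallest group or next to it in each column, at 4.16% in Bsecs to 16.9% in WT luminal cells.

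**Figure D3:**
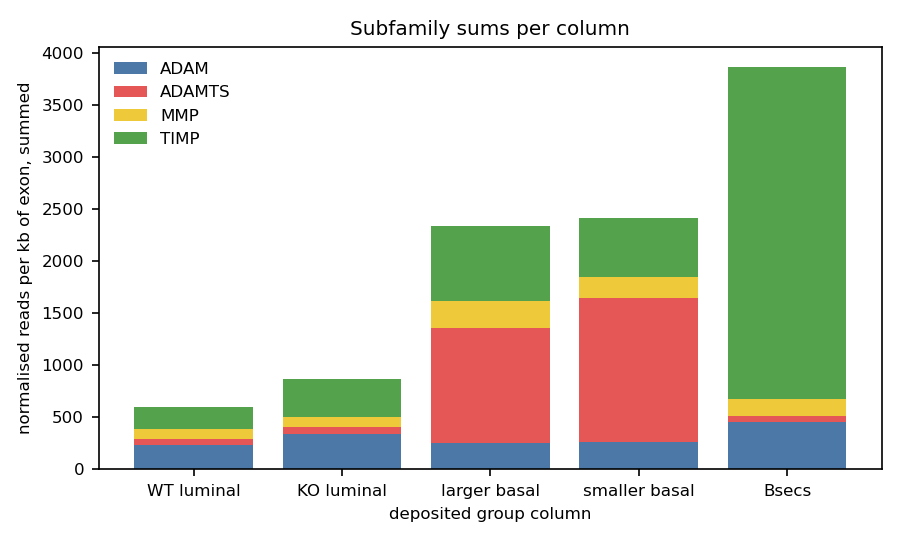
Stacked bars of normalised reads per kb of exon, summed over the ADAM, ADAMTS, MMP and TIMP genes, in the 5 columns. The family sums run from 599 in WT luminal cells to 3869 in Bsecs, where the TIMP part is 3197, and the ADAMTS part is large only in the basal columns, at 1105 and 1380.1.

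Bsecs were then compared with the basal columns. Adam8 rose, and Adam12 and Adam19 fell, against each of them. Adam8 was 313-fold (134 to 966) higher than in the larger basal column and 1121-fold (201 to 44327) higher than in the smaller, where ranges are 95% counting intervals. Adam19 was 670-fold (119.9 to 26499) and 1015-fold (182 to 40121) lower, and Adam12 90-fold (38.3 to 278) and 95.7-fold (40.7 to 297) lower. Adjusted p was 0.00462 and 0.000413 for Adam8, 0.00339 and 0.000355 for Adam19, and 0.0218 and 0.0153 for Adam12, from DESeq p-values of the authors' deposited tables adjusted over all genes by the Benjamini-Hochberg method.

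Counted over the family, 3 of 56 members with a p-value passed against the larger basal column, 1 higher and 2 lower, where 0.48% of all genes passed (0.227% higher and 0.254% lower). Against the smaller column 3 of 41 passed, again 1 higher and 2 lower, where 0.759% of all genes passed (0.38% higher and 0.38% lower). Both comparisons use the same Bsecs column. By size alone, 15 of 33 members with at least 10 reads had a Bsecs level at least 4-fold below the larger basal column and 6 at least 4-fold above it, against 14% and 9.97% of all genes. For the smaller column 9 of 28 were lower and 7 higher, against 13% and 12%. The median log2 fold of values plus 1 over members with a p-value was -0.97 for the larger column and -0.66 for the smaller, beside -0.21 and 0.10 over all genes. Both medians fell on members near the limit of counting, so they can neither show nor exclude a shift of the family. The first is the value of members with 0 reads in Bsecs and 1 in the larger column, such as Adam5. The second is that of Adamts13, with 2 reads in Bsecs and 3 in the smaller column.

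Several large differences did not pass, and 9 and 8 members had an unadjusted p under 0.05 against the larger and smaller column (all genes, 4.61% and 4.91%). Timp3 was 14.1-fold (13.4 to 14.8) and 15.4-fold (14.5 to 16.3) its level in the basal columns, larger first, with an adjusted p of 1 in the authors' deposited tables and an unadjusted one of 0.453 and 0.279. Adamts1 was lower in Bsecs by 24.7-fold (21.4 to 28.6) and 32.96-fold (28.5 to 38.3), with adjusted p of 0.636 and 0.446. Adamts5 was lower by 26.5-fold (19.4 to 37.2) and 22.2-fold (16.2 to 31.3) (adjusted p 0.13 and 0.115 in the deposited DESeq tables). Mmp2 was lower by 17.6-fold (10.3 to 32.6) and 8.16-fold (4.62 to 15.5), and Adamts9 by 17.9-fold (9.78 to 36.3) and 12.6-fold (6.76 to 25.9). Mmp9 was higher by 19.5-fold (7.30 to 73.6) against the larger column and at least 18.6-fold higher against the smaller, which had 0 reads, and Mmp13 by 5.64-fold (3.59 to 9.25) and 46.5-fold (12.6 to 388). Intervals of these folds leave out 1, but they hold counting error and no spread between animals. Fibroblast markers summed to 2556 normalised reads in the larger basal column, 486 in the smaller and 493 in Bsecs, all 9 of 9 being read in each. Within that list Col1a1 stood at 188, 108 and 16.9 in the same order, and Pdgfra at 103, 17.3 and 2.11. Pdgfrb was at 34.6, 25.2 and 1.05, and Col1a2 and Col3a1 were also lowest in Bsecs. Fbln1 was instead highest in Bsecs, at 47.1, 35.8 and 68.5. Dpt at 351, 45.1 and 96.9, Dcn at 1297, 130 and 198 and Lum at 154, 3.98 and 25.3 were lowest in the smaller column. The part of fibroblasts in the Mmp2 and Adamts5 differences was not tested.

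**Figure D4:**
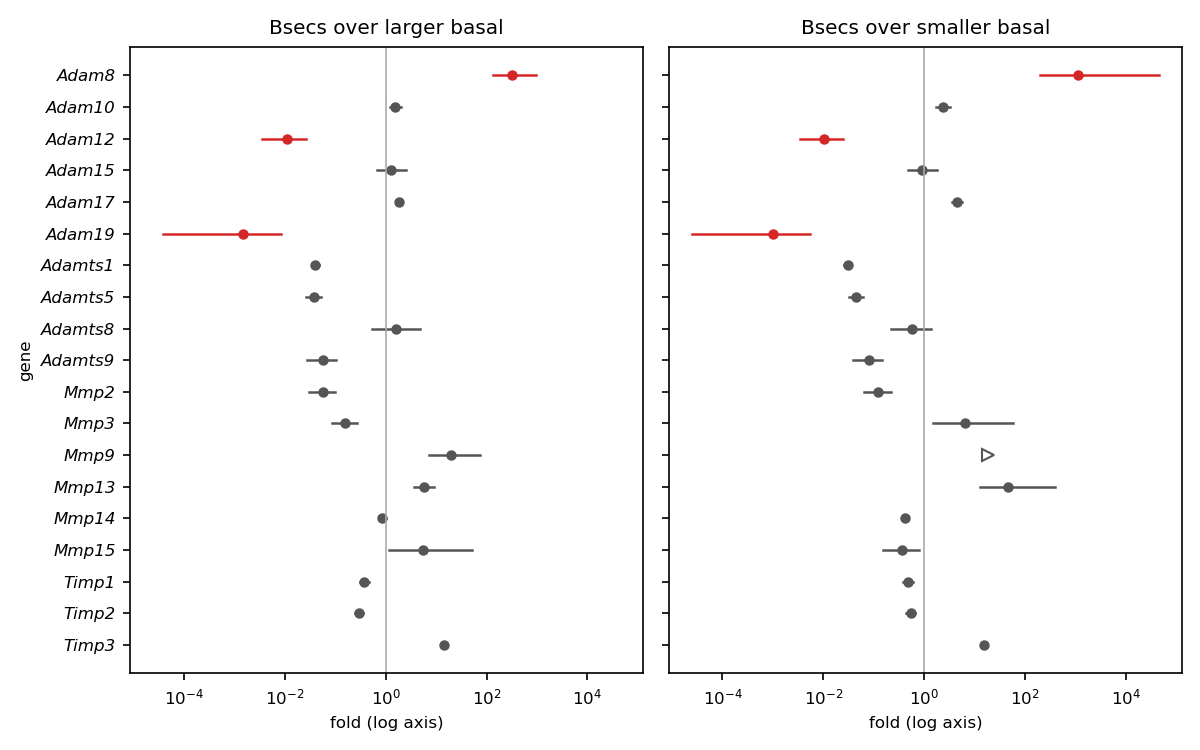
Fold of Bsecs over the larger (left) and smaller (right) basal column for 19 members (log axis), with 95% counting intervals as lines, red where the adjusted p of the authors' deposited table is under 0.05, and an open arrow for a lower bound where the basal column had 0 reads. Adam8 lies furthest to the right and Adam19 furthest to the left in both panels, and Timp3 sits at 14.1 and 15.4.

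Set against luminal cells, Bsecs had more Timp3, Adam8, Mmp9 and Mmp13 and less Adam10 and Mmp15. None of these differences passed. Timp3 was 21.3-fold (20.3 to 22.4) its KO luminal and 49.2-fold (45.3 to 53.5) its WT luminal level, Adam8 4.62-fold (4.16 to 5.15) and 17.02-fold (13.9 to 20.99), Mmp13 14.8-fold (8.13 to 29.4) and 5.38-fold (3.52 to 8.50), and Mmp9 6.66-fold (3.83 to 12.3) and 5.14-fold (2.996 to 9.31). Mmp15 was lower by 15.7-fold (8.37 to 33.1) and 20.5-fold (10.95 to 43.2), and Adam10 by 5.36-fold (4.54 to 6.36) and 4.01-fold (3.38 to 4.79). Mmp19, with 44 reads in Bsecs, was at least 22-fold higher than in KO luminal cells, which had 0, and 54.2-fold (9.23 to 2187) higher than in WT luminal cells, which had 1. Adamts5 was 30.8-fold (7.99 to 262) higher than in KO luminal and at least 16.8-fold higher than in WT luminal cells.

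Against KO luminal cells 0 of 49 members passed the adjusted p, where 0.0405% of all genes did, and 3 had an unadjusted DESeq p under 0.05 in the authors' deposited table, where 3.82% of all genes had one. Against WT luminal cells these counts were 0 of 45 (background 0.21%) and 3 (4.29%). By size, 10 of 26 members with at least 10 reads were at least 4-fold higher in Bsecs than in KO luminal cells and 4 at least 4-fold lower, against 8.59% and 17.4% of all genes. Over WT luminal cells 9 of 27 were higher and 7 lower, against 11.7% and 17.1%. Members that had to be read in 1 column to be counted can differ for that reason, so these counts are a description. Median log2 folds of values plus 1 were -0.24 over KO luminal and 0.82 over WT luminal cells, with -0.21 and -0.09 over all genes. The 0.82 is the value of Adam12, which had only 5 reads in Bsecs and 3 in WT luminal cells.

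The comparison of luminal cells asks what the column labelled KO luminal has beside WT luminal, and no member passed it. Adam15 and Adamts15 were at least 4-fold higher in the KO luminal column. Adam15 was at 4.05-fold (2.82 to 5.96) its WT level, with unadjusted p of 0.0473 and adjusted p of 1 in the authors' deposited DESeq table. Adam8 was at 3.57-fold (2.88 to 4.47), Timp3 at 2.24-fold (2.04 to 2.47), Adamts1 at 1.89-fold (1.56 to 2.31), Mmp14 at 1.71-fold (1.46 to 2.01), Timp2 at 1.53-fold (1.37 to 1.71) and Adam10 at 1.30-fold (1.19 to 1.42) their WT luminal levels. Adamts8 was lower by 10.04-fold (5.49 to 20.1), with 12 reads against 96 and an adjusted p of 0.972 in the same DESeq table, the lowest of any member there. Adam17 was 1.13-fold (0.938 to 1.35) and Timp1 1.11-fold (0.707 to 1.75) their WT levels, with intervals that include 1. Of 45 members with a p-value 0 passed, where 0.0882% of all genes did, and 5 had an unadjusted p under 0.05, where 3.74% of all genes had one. By size, 2 of 27 members stood 4-fold or more above WT in KO luminal cells and 6 4-fold or more below, beside 7.42% and 6.06% of all genes. Of the lower ones, Adam33, Mmp12, Mmp16, Mmp3 and Adam19 had 9 to 31 reads in WT luminal cells and at most 2 in KO luminal. Some markers of other cells were lower there too, and the macrophage and fibroblast sums were higher. S100a8 of the neutrophil list had 181 reads in WT and 7 in KO luminal and passed the adjusted p, Ltf had 4126 and 1208, and the fibroblast genes Col1a1 and Col3a1 had 13 and 22 against 0 and 2. Others of these lists went the other way, WT first: Dpt with 1 and 22 reads, Dcn with 868 and 1360 and Csf1r with 17 and 76. The list sums were 22397 and 21503 normalised reads for neutrophil, 817 and 1006 for fibroblast and 469 and 601 for macrophage markers. The part of such cells in these differences was not tested. The median log2 fold of values plus 1 was 0.39, against 0.10 over all genes. That median is the value of members with 2 reads in the KO and 1 in the WT luminal column, such as Adamts17.

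Between the basal columns, 0 of 50 members passed (background 0.0274%), with 2 at an unadjusted p under 0.05 in the authors' deposited DESeq table (background 3.09%). Adam12 in the smaller column was 1.07-fold (0.930 to 1.22), Timp3 0.919-fold (0.853 to 0.989), Adamts5 0.840-fold (0.764 to 0.922), Adamts1 1.34-fold (1.29 to 1.39) and Adam19 1.52-fold (1.37 to 1.68) its level in the larger. Mmp14 was at 2.06-fold (1.82 to 2.34). Mmp3 had the lowest adjusted p, with 2 reads in the smaller and 112 in the larger column, 40-fold (10.8 to 334) lower at an adjusted p of 0.754 in the DESeq table. Adamts17, with 0 reads against 42, was at least 10-fold lower, Mmp2 2.15-fold (1.69 to 2.76) lower, Adam17 2.39-fold (1.87 to 3.10) lower and Timp2 1.80-fold (1.55 to 2.11) lower. Fibroblast markers were lower in the smaller column too, at the 2556 and 486 normalised reads given above, of which Dcn was 1297 and 130. Pdgfra stood at 103 in the larger and 17.3 in the smaller column. Col1a1 (188 and 108), Fbln1 (47.1 and 35.8) and Pdgfrb (34.6 and 25.2) differed less. Endothelial markers summed to 235 and 73.02. The part of these cells in the differences was not tested. By size, 5 of 33 members in the smaller column stood 4-fold or more below the larger and 2 above, against 10.3% and 6.67% of all genes. The median log2 fold of values plus 1 was -0.88, against -0.29 over all genes. That median is the value of members with 0 reads in the smaller and 1 in the larger column, such as Adam5.

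Genes that act with these proteases were read from 5 lists. Of 17 regulators of MMPs and ADAMs, the testican Spock2, an extracellular proteoglycan, fell in Bsecs against both basal columns, 202-fold (35.9 to 8007) and 326-fold (58.1 to 12939) lower. The proprotein convertase Pcsk5, of a family that activates protease precursors, fell against the larger, 367-fold (65.5 to 14542). Adjusted p was 0.0378 and 0.00885 for Spock2 and 0.00772 for Pcsk5, by DESeq p-values of the authors' deposited tables. These were the calls of 16 and 13 members with a p-value, and the list's median log2 folds were 0.17 and 0.53. Of all genes, 0.48% and 0.759% passed in these comparisons, with medians of -0.21 and 0.10, which are also the background of the lists that follow. Rhbdf1, an iRhom that carries ADAM17 to the surface, had 169 reads in WT luminal, 405 in KO luminal, 93 in the larger basal, 161 in the smaller basal and 476 in Bsecs. Reck, a membrane-anchored MMP inhibitor, was basal, at 70.2 and 70.4 in the larger and smaller columns and 7.95 to 12.5 in the other 3. Furin, which activates many ADAMs and membrane-type MMPs, was read in all columns, at 227 to 880.2.

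Other metallopeptidases held 2 calls against each basal column, both lower in Bsecs: the endopeptidase Mme, 1972-fold (354 to 77918) and 1321-fold (236 to 52208), and Pappa, which cuts IGF-binding proteins, 460-fold (127 to 3804) and 141-fold (38.6 to 1171). They were 2 of 9 and 2 of 7 with a p-value, at list medians of -1.54 and 0.32 (all genes, 0.48% and 0.759% called, medians -0.21 and 0.10), and Mme also fell against WT luminal cells, 375-fold (67.04 to 14858). A log2 fold of -1.54 is that of a gene with 2 reads in the larger basal column and 0 in Bsecs, as Mep1a had. Of 24 proteins known to be shed by ADAMs, the EGF receptor ligands Areg and Epgn rose in Bsecs against both basal columns, and Ereg fell against the smaller, 37.1-fold (25.1 to 57.2). Epgn was higher by 128-fold (77.5 to 229.7) and 344-fold (134 to 1265), and Areg, with 412 reads in Bsecs, had 1 in the larger and 0 in the smaller column. Areg was highest in luminal cells, at 1388 (WT) and 1821 (KO) normalised reads, against 434 in Bsecs. Epgn was at 466 and 308 in the luminal columns, WT first, and at 1843 in Bsecs. P-cadherin Cdh3 rose against WT luminal cells, 267-fold (73.5 to 2212). Adjusted p in the same DESeq tables was at most 0.0457 for these calls. The list's medians were 0.53 over the larger, 0.29 over the smaller basal column and -0.35 over WT luminal cells, where all genes had -0.21, 0.10 and -0.09. ADAMTS-like proteins (6 genes) and ADAMTS substrates with matrix proteins (11 genes) had 0 members past the test in the 6 comparisons by the deposited DESeq p-values. In the comparisons of the luminal columns, of the basal columns and of Bsecs with KO luminal cells, none of the 5 lists had a member past the same test.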

How the data were processed

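RNA from sorted mammary epithelial cells was extracted with TRIzol, turned into cDNA with the Ovation RNA-seq system (V2) and made into libraries with an Ovation Ultralow kit, per the labels' protocols. Tools were STAR and DESeq and the build mm9, per the submitters' processing notes. Not given in the sources used here: versions, options, read counter, strand setting and annotation. Per the file headers, the authors' deposited tables give for each gene the base mean of 2 groups (a signal of normalised counts) and an unadjusted DESeq p-value. Each base mean was a whole multiple of 1 step per column (100% of values within 0.01 of a count), so reads were recovered, and each of the 5 distinct columns had the same reads in each table that holds it. There are 0 columns per library and 0 of other origin.

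Folds use the scale of each table, with 95% intervals from the Clopper-Pearson binomial method on how the reads divide. Without molecular identifiers, PCR copies count as reads, so only counting error is covered by intervals and by the floor of 3 reads, which stands in for 0 in a fold. Calls are an adjusted p under 0.05 over all genes with a p-value. Levels use median-of-ratios factors over genes read in all 5 columns. Turned into dates were 27 symbols, and repeated symbols were left out when tables were joined. Alternatives used edgeR 4.0.16 in R 4.3.3, on recovered reads with a dispersion assumed, since none can be estimated without replicates. Named were members past the test, those at least 4-fold apart with at least 100 reads and an interval without 1, the TIMPs, Adam10, Adam17, Mmp2, Mmp9 and Mmp14. Other members named with values or for small counts were chosen after their values were seen. Members, lists and rules were chosen with earlier results of these data known. Steps across genes were tested on simulated counts.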

Additional observations from a re-analysis of the deposited data

How the results depend on the processing

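No paired analysis was possible because the deposited tables hold no columns per library, and for the same reason no replicate could be left out. Adjusting over genes with at least 10 reads kept each count of members called. With edgeR's exact test and a dispersion set to 0.16, which no replicate supports, the calls were 15 members against the larger basal column and 12 against the smaller in place of 3 and 3, 5 and 8 for Bsecs against KO and WT luminal cells, 2 between the luminal and 3 between the basal columns in place of 0. That test called 8.52%, 10.2%, 11.1%, 13.8%, 1.54% and 2.4% of all genes in the same order, and the 5 members against KO luminal cells, of 49 with a p-value, are no more than that background. It included Timp3, Adamts1 and Adamts5 against both basal columns. At an unadjusted p under 0.05 these counts were 9, 8, 3, 3, 5 and 2, in the same order. With at least 50 reads in place of 10, members at least 4-fold apart numbered 13 in place of 21 against the larger basal column, 7 in place of 14 and 8 in place of 16 against KO and WT luminal cells, 2 in place of 8 between the luminal and 1 in place of 7 between the basal columns, since fewer members were counted. Scaling by totals without Rn45s (9.76% to 32.2% of reads) shifted log2 folds by -0.08 for luminal, -0.17 for basal columns and -0.20 to -0.36 for Bsecs. Under that scale 3 of 110 log2 folds of named members changed sign, each with a counting interval that includes 0: Adam12 between the basal columns (0.09 to -0.07), Adamts9 for Bsecs over WT luminal (0.30 to -0.02) and Adam15 for Bsecs over the larger basal column (0.35 to -0.01). With edgeR's TMM factors or 1 or 10 added to values, 0 changed sign. Past their counting interval moved 21 of the folds under the totals and 16 with 10 added. The lineage split stayed at 7 luminal and 13 basal members under both scales. The scale check of the columns with the highest level was chosen after seeing the data.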

Other observations

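A few members were read almost only in WT luminal cells. Mmp16, a membrane-type MMP, had 19 reads there, 2 in the larger basal column and 0 in the other 3. Adam33 had 31 reads there, 1 in KO luminal cells and 0 elsewhere. Adamts17 and Adamts12 were instead nearly limited to the larger basal column, with 42 and 29 reads there and at most 3 in any other column. These values are too small for more than a description.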
